A study of Danio rerio with 18 samples.

Results

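Oxidative phosphorylation genes were followed through intestine and kidney of zebrafish embryos raised with microbes, raised without them, or lacking chd8. The members were all genes of the deposited tables whose symbol, capitals ignored, begins with ndufa, ndufb, ndufc, ndufs, ndufv, sdha to sdhd, uqcr, cox4 to cox8 or atp5, together with the genes encoded in mitochondrial DNA for subunits of NADH dehydrogenase, cytochrome b, cytochrome c oxidase and ATP synthase. This gave 121 of 32520 genes, of which 108 are nuclear and 13 are mitochondrially encoded. By symbol, 42 nuclear members belong to complex I, 5 to complex II, 8 to complex III, 21 to complex IV and 18 to complex V, while 12 are assembly factors and 2 are inhibitors of ATP synthase. The mitochondrially encoded members are 7 subunits of complex I, 1 of complex III, 3 of complex IV and 2 of complex V.

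Oxidative phosphorylation is the step by which mitochondria turn the electrons of food into ATP. Complexes I and II feed electrons from NADH and succinate to complex III and on to complex IV, which passes them to oxygen, and the proton gradient built on the way drives complex V, the ATP synthase. Complexes I, III, IV and V are built from subunits of 2 genomes, the nuclear one and that of the mitochondrion, whereas complex II is nuclear alone, and the transport work of gut and kidney epithelium is known to draw heavily on this machinery.

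RNA was sequenced from 18 libraries of the AB strain in 6 groups of 3. The groups were chd8-/- mutants of a chromatin remodeller gene of the CHD family, germ-free wild type embryos (GF) and conventionally raised wild type embryos (CV), each as dissected kidney and as dissected intestine. Kidneys, which house blood formation in this fish, were taken at 7 days after fertilization and intestines at 5 days, so tissue and age cannot be told apart. For kidney the labels give about 70 pooled embryos for chd8-/- and 50 for GF and CV, and for intestine 40 for chd8-/- and 30 for GF and CV. GF eggs were kept in medium with antibiotics, washed in polyvinylpyrrolidone and hypochlorite and raised in sterile medium, and CV embryos came from the same spawning scheme without those steps. The chd8-/- embryos were spawned in circulating fish system water under a protocol of their own, so genotype and rearing cannot be told apart, and which chd8 lesion the line carries is not given in the sources used here. Nothing says that replicates were separate clutches, and p-values therefore measure the spread between these libraries, which may be technical.

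Total counts per library ran from 26864797 to 36624972 over the 18 libraries. CHD8 itself stood at 30.2, 34.8 and 39.1 CPM (counts scaled to library size with TMM factors over the 18 libraries) in chd8-/- kidney, at 53.8, 33.5 and 54.1 CPM in GF kidney and at 46.0, 51.2 and 51.7 CPM in CV kidney. In the intestine it stood at 31.7 to 41.3 CPM in chd8-/-, 57.6 to 62.7 CPM in GF and 51.4 to 55.6 CPM in CV. The library labelled GF kidney replicate 2 thus lay within the chd8-/- range and below the other GF and CV kidney libraries, and it is the second value wherever GF kidney values are listed. CHD8 differed between chd8-/- and CV by −0.55 in kidney (edgeR adjusted p = 0.468) and −0.60 in intestine (edgeR adjusted p = 0.0292). Its level alone therefore cannot decide whether that label holds. Of 18 enterocyte markers 17 were lower in CV kidney than in CV intestine. Kidney libraries also held RNA of other tissues, with muscle markers summing to 57503 to 114348 CPM there and 9018 to 14986 CPM in the intestine, and exocrine pancreas markers to 40532 to 89989 and 15470 to 39044 CPM. Of the 15 kidney tubule markers, 8 were higher and 5 lower in CV kidney, and their sum was lower in kidney (972 to 1576 CPM) than in intestine (2935 to 5112 CPM), so the libraries are called kidney as labelled.

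Nuclear members summed to less in kidney than in intestine, while the sums of the mitochondrially encoded members overlapped between the tissues. On the log2 scale the nuclear sum of kidney minus that of intestine was −0.84 in chd8-/-, −0.62 in GF and −0.79 in CV, and the mitochondrial difference was −0.06, 0.02 and −0.34. In kidney the 108 nuclear members summed to 9262, 6608 and 7195 CPM in chd8-/-, to 7538, 7216 and 7615 CPM in GF and to 6852, 7208 and 6769 CPM in CV. In intestine they summed to 15011, 12698 and 13386 CPM in chd8-/-, to 10449, 11724 and 12344 CPM in GF and to 15682, 9776 and 11352 CPM in CV. Every kidney library lay below every intestine library.

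The 13 mitochondrially encoded members summed to 40020, 40908 and 42223 CPM in chd8-/- kidney, to 31787, 36383 and 33435 CPM in GF kidney and to 28773, 36092 and 32084 CPM in CV kidney. Their sums were 37379, 49122 and 42486 CPM in chd8-/- intestine, 34922, 36391 and 29283 CPM in GF intestine and 36961, 46088 and 39432 CPM in CV intestine. In chd8-/- kidney all 3 libraries lay above all other kidney libraries, while GF and CV kidney overlapped. In GF intestine all 3 lay below all other intestine libraries, while chd8-/- and CV intestine overlapped. As shares of all counts, the mitochondrially encoded members took 3.06% to 5.11% of a library and the nuclear members 0.626% to 1.54%. On that scale, without TMM factors, GF intestine (3.27% to 3.84%) overlapped chd8-/- (3.48% to 4.82%) and CV intestine (3.64% to 5.11%). In kidney chd8-/- (3.70% to 3.99%) stayed above GF (3.28% to 3.45%) and CV (3.06% to 3.22%).

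The log2 ratio of the mitochondrial sum to the nuclear sum averaged 2.43 ± 0.28 in chd8-/- kidney, 2.18 ± 0.14 in GF kidney and 2.21 ± 0.13 in CV kidney (SD, n = 3 each). It averaged 1.64 ± 0.32 in chd8-/- intestine, 1.54 ± 0.26 in GF intestine and 1.76 ± 0.50 in CV intestine. The kidney mean exceeded the intestine mean by 0.79 in chd8-/-, 0.64 in GF and 0.46 in CV (0.20 without CV intestine replicate 1 and 0.70 without replicate 2), and the tissue ranges did not overlap in chd8-/- or GF but did in CV. Against CV of the same tissue the ratio moved by 0.22 in chd8-/- kidney, −0.03 in GF kidney, −0.11 in chd8-/- intestine and −0.22 in GF intestine. The libraries overlapped in all 4 comparisons, and leaving out 1 library gave 0.12 to 0.38 in chd8-/- kidney, −0.11 to 0.02 in GF kidney, −0.37 to 0.13 in chd8-/- intestine and −0.48 to 0.02 in GF intestine, so the sign turned in the last 3. Fewer cells of a type and less RNA per cell cannot be told apart in bulk tissue, for these sums and for every value that follows.

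**Figure D1:**
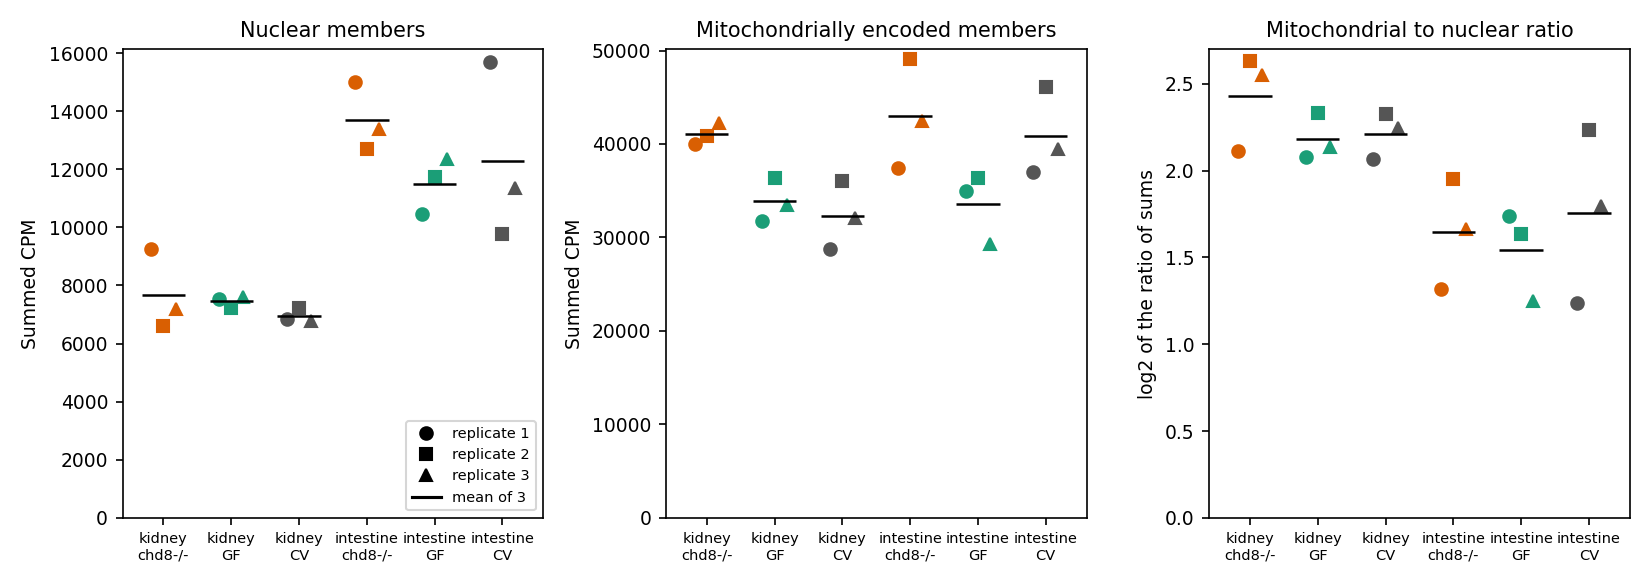
Summed CPM of the 108 nuclear members (left), summed CPM of the 13 mitochondrially encoded members (middle) and the log2 ratio of the mitochondrial to the nuclear sum (right), for every library of the 6 groups, with the replicate number as the symbol and the group mean as a bar. All 9 kidney libraries lie between 6608 and 9262 CPM on the left and all 9 intestine libraries between 9776 and 15682 CPM, whereas the tissues overlap in the middle.

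Among the 6 groups, the nuclear members spread most between replicates in CV intestine. In all 3 intestine groups the library that was highest for the largest number of nuclear members was lowest for the largest number of mitochondrially encoded members. Numbered as in the germ-free table, replicate 1 held the highest level for 96 of 104 nuclear members that could be tested and replicate 2 the lowest for 77, while replicate 2 was highest for 9 of 13 mitochondrially encoded members and replicate 1 lowest for 8. In chd8-/- intestine replicate 1 was highest for 84 nuclear members and lowest for 10 mitochondrially encoded ones, and in GF intestine replicate 3 was highest for 46 and lowest for 9. Kidney did not share this in GF and CV. In GF kidney replicate 3 was highest for 38 and lowest for 1, and in CV kidney replicate 2 was highest for 47 and for 9. In chd8-/- kidney replicate 1 was highest for 79 and lowest for 6, as was replicate 2 for another 6. The median distance between the highest and lowest replicate of a member was 0.81 on the log2 scale for nuclear members and 0.52 for mitochondrially encoded members in CV intestine, beside 0.50 over all genes tested. Over all genes the kidney groups spread more than that, at 0.52 to 0.59. In the other 5 groups the nuclear median ran from 0.29 to 0.48. Genes of the cytosolic ribosome moved with this spread: 80 of them, a list added after the data were seen, summed to 90448, 37640 and 61047 CPM in the CV intestine replicates, with the same order as the nuclear members. They summed to 68271 to 82632 CPM in chd8-/- intestine and to 56062 to 62132 CPM in GF intestine, and their part in the results was not tested.

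Among the mitochondrially encoded members themselves, the 3 core subunits of complex IV had the highest levels per kilobase of gene, taken from RefSeq gene lengths. Over the 18 libraries MT-CO1, the catalytic subunit, averaged 8422 CPM per kilobase, MT-CO2 6418 and MT-CO3 6302. They were followed by MT-ATP6, the proton channel subunit of ATP synthase, at 4848 and MT-CYB, the cytochrome b of complex III, at 3756. The subunits of complex I were lower on this scale, with MT-ND4 at 1450, MT-ND2 at 1311, MT-ND1 at 1251, MT-ND6 at 1018, MT-ND5 at 998, mt-nd4l at 796 and MT-ND3 at 465. The short mt-atp8 was lowest at 238.

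This order says little about small gaps, since MT-CO2 and MT-CO3 overlapped over the libraries and so did MT-ND4, MT-ND2 and MT-ND1. MT-CO1 alone took 28.0% to 41.0% of the mitochondrial sum. Its level varied 1.68-fold over all libraries, from 6296 to 10561 CPM per kilobase. MT-ND3 varied 3.16-fold, from 248 to 782, and mt-atp8 25.4-fold, from 29.4 to 745. The mt-atp8 gene shares 7 bases with MT-ATP6, mt-nd4l shares 7 with MT-ND4, MT-ND5 shares 4 with MT-ND6 on the other strand and MT-ATP6 shares 1 with MT-CO3. How reads over 2 genes were counted and whether strand was used are unstated in the labels and notes used here, so the levels of these pairs are uncertain.

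**Figure D2:**
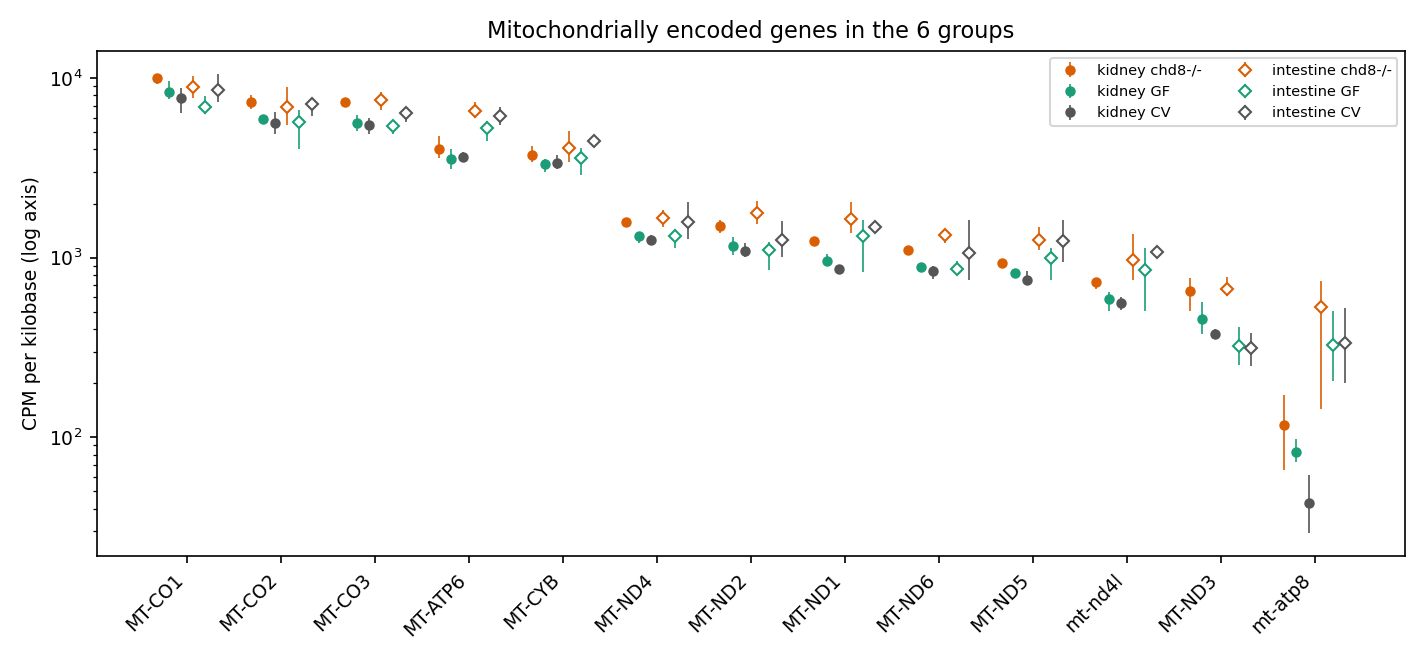
Level of each mitochondrially encoded member in CPM per kilobase of gene (log axis) for the 6 groups, ordered by the mean over the 18 libraries. The levels fall from 8422 for MT-CO1 to 238 for mt-atp8, and mt-atp8 is the gene whose groups lie farthest apart.

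The comparison of kidney with intestine asked how the machinery differed between the tissues. It was made in turn for chd8-/-, GF and CV embryos, which share no library. All came from a single fit of the 18 libraries, so they share its scaling and its estimate of spread. Nuclear members of all 5 complexes were lower in kidney, and so were some mitochondrially encoded members. In CV embryos 76 of 104 nuclear members were lower and 4 higher in kidney, with a median log2 difference of −0.87. Of the 13 mitochondrially encoded members 5 were lower and 0 higher, with a median of −0.36. Over all genes tested 39.7% were called, 21.3% lower and 18.4% higher, with a median of 0.01 (edgeR's quasi-likelihood test, Benjamini-Hochberg adjusted p under 0.05).

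In GF embryos 48 nuclear members were lower and 5 higher in kidney (median −0.58), beside 19.8% and 15.2% of all genes (35% called in all). Mitochondrially encoded members were lower for 2 and higher for 0 (median 0.01). In chd8-/- embryos 75 nuclear members were lower and 1 higher (median −0.84), beside 17.4% and 15.8% of all genes (33.3% called in all), and 2 mitochondrially encoded members were lower (median −0.26).

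Across the 3 backgrounds, 47 of 104 nuclear members (45.2%) were called lower in kidney each time, against 12.7% of all genes. The same held for 2 of 13 mitochondrially encoded members (15.4%), MT-ATP6 and mt-atp8, which share bases and whose levels are uncertain. For 37 nuclear members (35.6%) all 9 kidney libraries lay below all 9 intestine libraries, against 12.5% of all genes and 0 mitochondrially encoded members. COX4I2, an alternative form of complex IV subunit 4, was the 1 nuclear member called higher in kidney each time.

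Members of every complex were among those lower in kidney. In CV embryos 30 of 39 tested nuclear members of complex I were lower in kidney, as were 3 of 5 of complex II, 6 of 7 of complex III, 14 of 21 of complex IV and 17 of 18 of complex V. Both inhibitors of ATP synthase, atp5if1a and atp5if1b, were lower as well. Of the 12 assembly factors, which help build complexes I and II and are not part of them, 4 were lower and 1 higher. Catalytic and core subunits were among those that fell: SDHA, which oxidises succinate in complex II, fell by 0.79 on the log2 scale, NDUFV1, which takes the electrons of NADH into complex I, by 0.73, UQCRC1, a core protein of complex III, by 1.22 and ATP5F1A, the alpha subunit of ATP synthase, by 0.87. These 4 were called lower in all 3 backgrounds. The core subunits SDHB, NDUFS3, NDUFV2 and ATP5F1C were not.

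ATP5F1A is given as an example. Its fall in CV embryos lay near the nuclear median of −0.87, but it was among the 37 of 104 nuclear members with all kidney libraries below all intestine libraries. Most members were thus less clearly apart. The level of ATP5F1A was 1178, 730 and 785 CPM in chd8-/- kidney, 927, 836 and 943 CPM in GF kidney and 788, 921 and 890 CPM in CV kidney. In intestine it was 2110, 1778 and 1871 CPM in chd8-/-, 1481, 1657 and 1846 CPM in GF and 1913, 1433 and 1414 CPM in CV. The tissues did not overlap, and the call held in each background (edgeR adjusted p = 0.000468 in chd8-/-, 0.00266 in GF and 0.00244 in CV).

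Mitochondrially encoded members behaved unevenly. MT-CO1 stood at 9938, 13710 and 12390 CPM in CV kidney and 11433, 16380 and 12195 CPM in CV intestine, which overlap, a log2 difference of −0.15 that did not pass (edgeR adjusted p = 0.616). MT-CYB was not called in any background either. MT-ATP6 was at 2455, 2659 and 2330 CPM in CV kidney and 3726, 4719 and 4191 CPM in CV intestine, without overlap, and fell by 0.76 (edgeR adjusted p = 0.00464). The largest difference was in mt-atp8, at 6.33, 4.85 and 10.24 CPM in CV kidney and 45.3, 86.8 and 32.9 CPM in CV intestine, a fall of 2.94 (SE 0.58, edgeR adjusted p = 0.000842), which was 1.98 in GF and 2.19 in chd8-/-. That gene has only 165 bases and shares some with MT-ATP6, so its level is uncertain, as said above. Over the 18 libraries it varied 25.4-fold and MT-ATP6 2.37-fold. The complex I subunits mt-nd4l, MT-ND1 and MT-ND5 fell in CV embryos by 0.94, 0.79 and 0.71 and did not pass in GF or chd8-/-.

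**Figure D3:**
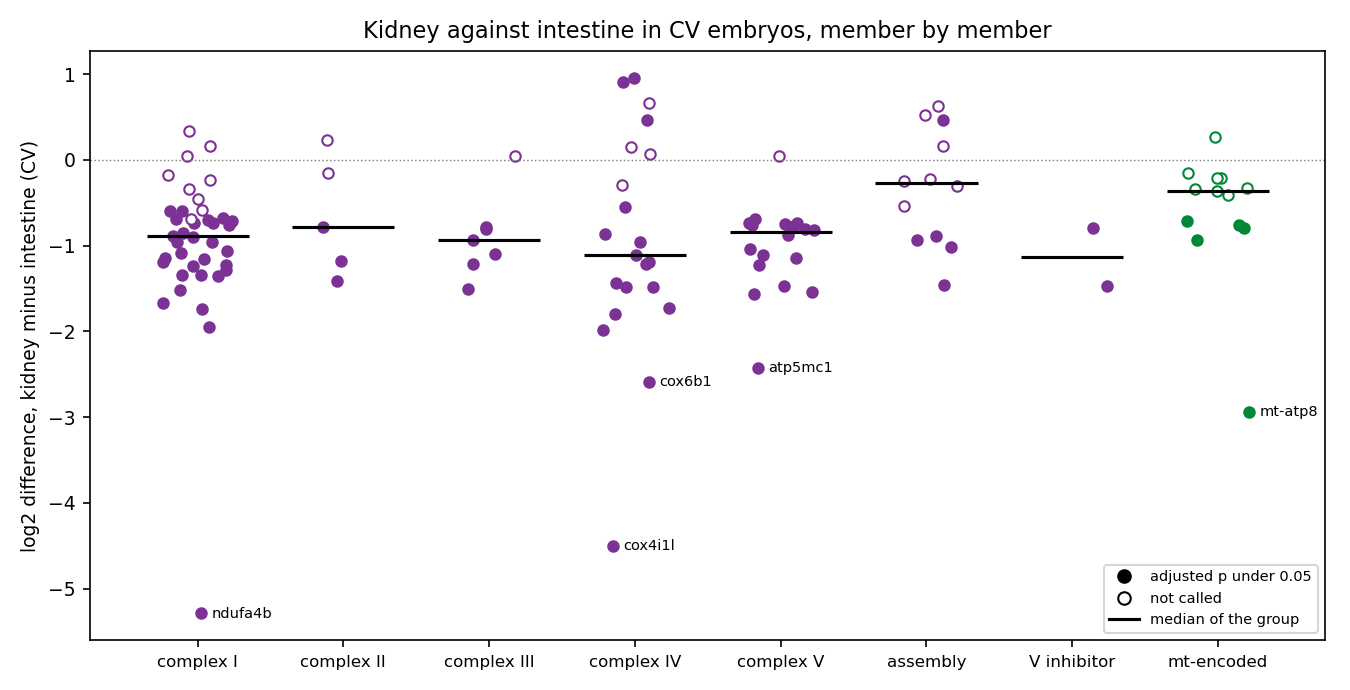
Log2 difference of each member between CV kidney and CV intestine (kidney minus intestine), by complex for nuclear members and together for mitochondrially encoded members, with filled points for an edgeR adjusted p under 0.05 and bars for medians. Most nuclear members of every complex lie below 0 and are filled, ndufa4b and cox4i1l lie lowest, and 8 of 13 mitochondrially encoded members are open.

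For some subunits with more than 1 gene, the genes differed in how far they fell, and for others they fell together. Both COX7A2 genes fell in CV kidney (ENSDARG00000053217 by 1.196 and ENSDARG00000110700 by 1.80), as did NDUFAB1 (0.96) and ndufab1b (1.22), for the acyl carrier subunit of complex I. The pairs that follow are those with a wide gap, picked after their values were seen, and no tally over all such subunits was made. The widest gap was that of ndufa4b and NDUFA4, for a subunit first listed with complex I and since placed in complex IV in mammals. Levels of ndufa4b were 6.89, 1.69 and 1.75 CPM in chd8-/- kidney, 5.24, 1.42 and 3.51 CPM in GF kidney and 7.42, 1.62 and 2.27 CPM in CV kidney. In intestine they were 49.6, 57.0 and 45.3 CPM in chd8-/-, 146, 82.8 and 110 CPM in GF and 176, 137 and 131 CPM in CV.

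No kidney library came near an intestine library, and ndufa4b fell by 5.29 in CV embryos (SE 0.66, edgeR adjusted p = 1.18e-05), by 5.05 in GF and by 3.88 in chd8-/-. NDUFA4 stood at 124 to 189 CPM in kidney and 124 to 185 CPM in intestine, with a log2 difference in CV of −0.17 that did not pass (edgeR adjusted p = 0.465).

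Subunit 4 of complex IV, which regulates the enzyme, went 3 ways. Its gene cox4i1l held 0.585 to 1.53 CPM in the 9 kidney libraries and 8.48 to 25.5 CPM in the 9 intestine libraries, and fell by 4.50 in CV (SE 0.32, edgeR adjusted p = 1e-08), by 3.75 in GF and by 4.24 in chd8-/-. COX4I1 fell by 0.55 in CV (edgeR adjusted p = 0.0126). COX4I2, known in mammals from lung, held 7.15 to 11.2 CPM in kidney and 3.03 to 6.08 CPM in intestine and rose by 0.96 in CV (SE 0.27, edgeR adjusted p = 0.00886), by 1.23 in GF and by 1.02 in chd8-/-, a call that missed the threshold in CV without CV intestine replicate 3 (adjusted p = 0.0522).

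Other small subunits of complex IV also had genes that differed. For subunit 6B, cox6b1 held 8.62 to 31.4 CPM in kidney and 79.8 to 118 CPM in intestine and fell by 2.59 in CV, whereas cox6b2 differed by 0.07 (edgeR adjusted p = 0.813). The highest kidney value of cox6b1 was that of CV replicate 1, and the fall was 3.45 without it. For subunit 8, cox8b held 9.35 to 17.7 CPM in kidney and 30.2 to 90.8 CPM in intestine and fell by 1.99 in CV, whereas cox8a differed by 0.16 (edgeR adjusted p = 0.601). For subunit 5A, COX5A fell by 1.44 and cox5aa differed by −0.29 without passing in CV (edgeR adjusted p = 0.281), although it fell by 0.66 in chd8-/-.

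Complexes III and V held such genes too. Of the genes for the c-ring of ATP synthase, which turns with the proton flow, atp5mc1 held 46.1 to 92.1 CPM in kidney and 204 to 340 CPM in intestine and fell by 2.42 in CV, ATP5MC3 fell by 0.69 and atp5mc3b differed by 0.04 (edgeR adjusted p = 0.908). In complex III, UQCRC2 fell by 0.78 and uqcrc2a differed by 0.04 (edgeR adjusted p = 0.844). In complex I ndufc2, the only member for its accessory subunit, held 14.2 to 29.4 CPM in kidney and 29.7 to 92.4 CPM in intestine and fell by 1.95 in CV. How reads that fit several such genes were treated is not given in the sources used here, and closely similar genes may share reads.

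The 4 nuclear members that rose in CV kidney were COX4I2, COX5B, COX7A2L and NDUFAF1. The COX5B gene meant here, ENSDARG00000068738, is 1 of 3 tested genes with that symbol, and it rose by 0.91 (edgeR adjusted p = 0.0105), whereas ENSDARG00000015978 fell by 1.11. COX7A2L, which joins complexes III and IV into supercomplexes in mammals, rose by 0.46 (edgeR adjusted p = 0.0279). NDUFAF1, an assembly factor of complex I, rose by 0.46 as well (edgeR adjusted p = 0.0225). When libraries were scaled by their size alone, COX7A2L and NDUFAF1 missed the threshold (adjusted p = 0.111 and 0.0825). COX5B, COX7A2L and NDUFAF1 also missed it in fits without a single CV library, with adjusted p up to 0.0962, 0.141 and 0.103. Next were NDUFAF7 at 0.52 (edgeR adjusted p = 0.134) and NDUFA6 at 0.17 (edgeR adjusted p = 0.665).

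**Figure D4:**
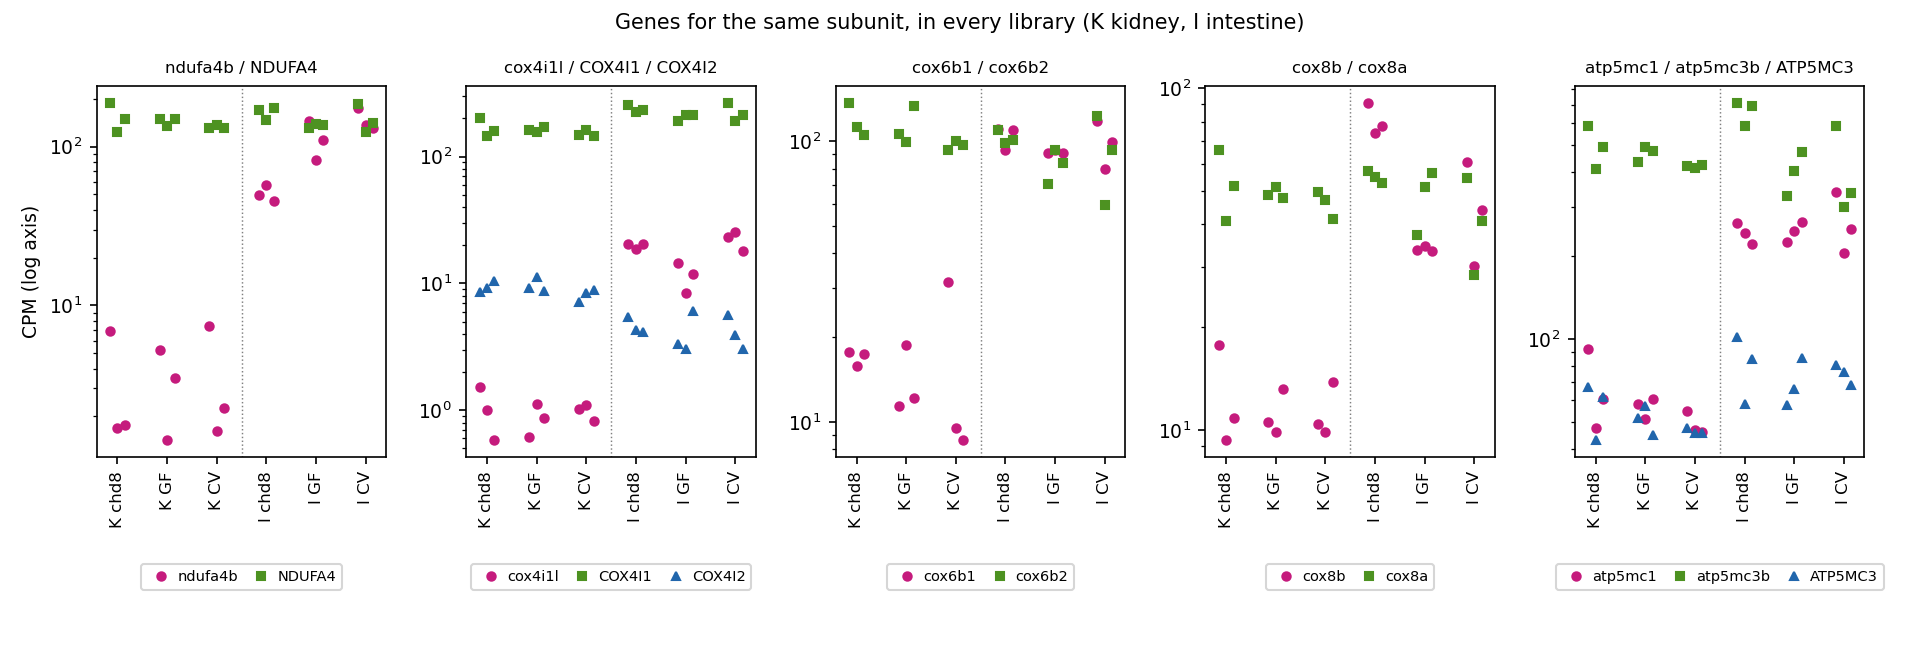
CPM (log axis) of genes for the same subunit in every library of the 6 groups, kidney (K) on the left of each panel and intestine (I) on the right. In each panel the gene drawn as a circle is lower in every kidney library than in every intestine library, while NDUFA4, cox6b2, cox8a and atp5mc3b overlap between the tissues; levels of different genes are not scaled to length.

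Other mitochondrial lists, chosen from textbook knowledge, were compared in CV embryos beside the 21.3% of all genes that were lower and 18.4% higher in kidney. Of 20 fatty acid oxidation genes 18 were lower and 0 higher (median −2.08). Of 75 genes of the mitochondrial ribosome, which translates the mitochondrially encoded members, 28 were lower and 4 higher (median −0.39). Of 43 assembly factors outside the members 13 were lower and 2 higher (median −0.43), and of 14 genes for defence against reactive oxygen and for uncoupling 8 were lower and 2 higher (median −0.78). The citric acid cycle had 9 lower and 5 higher of 23 (median −0.09). Its summed CPM was lower in every kidney library (3502 to 4423 CPM) than in every intestine library (4880 to 5662 CPM). Genes for copying and transcribing mitochondrial DNA had 8 lower and 9 higher of 35 (median 0.05).

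For the remaining lists the counts were 11 lower and 3 higher of 25 chaperones, proteases and stress genes, 9 lower and 6 higher of 35 import and membrane genes, 4 lower and 3 higher of 16 regulators of mitochondrial genes, 3 lower and 4 higher of 15 glycolysis genes, and 3 lower and 0 higher of 5 carriers and subunits from a list meant for genes outside the symbol rule. Of the 7 genes matched for that last list, 1 is also a member. Enterocyte markers, 17 of 18 lower with a median of −4.43, moved with the nuclear members, as did muscle markers in the other direction (12 of 20 higher, 5 lower, median 1.76) and exocrine pancreas markers (13 of 14 higher, median 1.87). The part of these tissues in the difference was not tested.

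The comparison of chd8-/- with CV intestine asked what loss of the remodeller changed in that tissue. Of 104 nuclear members 2 rose and 1 fell in chd8-/-, and of the 13 mitochondrially encoded members 1 rose, where 9.17% of all genes were called, 3.98% higher and 5.19% lower. The median log2 difference was 0.11 over nuclear and 0.06 over mitochondrially encoded members, beside −0.01 over all genes. Leaving out 1 library, numbered as in the chd8-/- table, gave −0.00351 (without CV replicate 1) to 0.39 (without CV replicate 3) for nuclear and −0.04 to 0.25 for mitochondrially encoded members. The difference was positive for 80 nuclear and 10 mitochondrially encoded members, beside 48.6% of all genes. The direction of these medians turned when libraries were scaled by size alone, which moved the median of all genes by −0.12 and gave −0.00172 for nuclear and −0.07 for mitochondrially encoded members.

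The member that fell was ndufa4b, at 49.7, 57.5 and 45.4 CPM in chd8-/- and 139, 132 and 179 CPM in CV intestine (CPM here and in the following comparisons with CV are scaled within the 6 libraries compared). The groups did not overlap (log2 difference −1.56, SE 0.17, edgeR adjusted p = 0.000404). It passed in each of the fits without 1 library (adjusted p up to 0.00499). NDUFA4, the other gene for this subunit, stood at 171, 149 and 175 CPM in chd8-/- and 126, 142 and 188 CPM in CV, which overlap (0.12, SE 0.18, edgeR adjusted p = 0.730).

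The mitochondrially encoded member that rose was MT-ND3, for a membrane subunit of complex I. It held 216, 277 and 218 CPM in chd8-/- and 134, 87.8 and 113 CPM in CV intestine, without overlap (log2 difference 1.08, SE 0.19, edgeR adjusted p = 0.00628). It also passed in each of the fits without 1 library (0.94 to 1.24, adjusted p up to 0.0431). The other 12 mitochondrially encoded members did not pass, and their log2 differences ran from −0.17 to 0.70. The upper end was mt-atp8, at 123, 23.9 and 116 CPM in chd8-/- and 86.2, 31.4 and 43.8 CPM in CV, which overlap.

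The nuclear members that rose were ndufa9b, a second gene for an accessory subunit of complex I, and cox8b. Levels of ndufa9b were low, at 3.47, 3.17 and 2.28 CPM in chd8-/- and 1.23, 1.29 and 1.19 CPM in CV (1.26, SE 0.29, edgeR adjusted p = 0.0236). For cox8b they were 90.9, 74.7 and 77.9 CPM in chd8-/- and 30.8, 44.4 and 62.0 CPM in CV (0.83, SE 0.22, edgeR adjusted p = 0.0429). Neither pair of groups overlapped, but each gene missed the threshold in some fits without 1 library, with adjusted p up to 0.117 for ndufa9b and 0.157 for cox8b. In a single fit of all 9 intestine libraries ndufa9b missed it too (edgeR adjusted p = 0.0954).

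Next in size were NDUFAF3, an assembly factor of complex I, and NDUFA6, an accessory subunit. NDUFAF3 stood at 89.6, 61.1 and 69.4 CPM in chd8-/- and 29.3, 18.8 and 52.1 CPM in CV intestine, without overlap (1.14, SE 0.32, edgeR adjusted p = 0.0600). NDUFA6 stood at 90.6, 51.4 and 72.2 CPM in chd8-/- and 27.0, 30.3 and 53.9 CPM in CV, with overlap (0.95, SE 0.28, edgeR adjusted p = 0.0621). Both passed in DESeq2 (adjusted p = 0.00301 and 0.00850) and in edgeR scaled by library size alone (adjusted p = 0.0398 and 0.0475). NDUFAF3 also passed in limma voom (adjusted p = 0.0431) and in a single edgeR fit of all 9 intestine libraries (adjusted p = 0.0496). At the low end after ndufa4b, at a mean of at least 5 CPM, were the small ATP synthase subunits atp5mj (−0.52, edgeR adjusted p = 0.186) and ATP5PF (−0.41, edgeR adjusted p = 0.532, and 0.08 without CV replicate 3 as the chd8-/- table numbers it). The number of nuclear members called rested on that CV library, the one with the highest nuclear sum: without it 18 rose and 1 fell (4.34% of all genes higher, 4.61% lower), without CV replicate 1 of that table the count was 8 (2 rose, 6 fell, beside 6.28% and 8.07% of all genes), and without CV replicate 2, chd8-/- replicate 1 or chd8-/- replicate 2 the count was 1 (5.97%, 3.9% and 3.69% of all genes called).

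**Figure D5:**
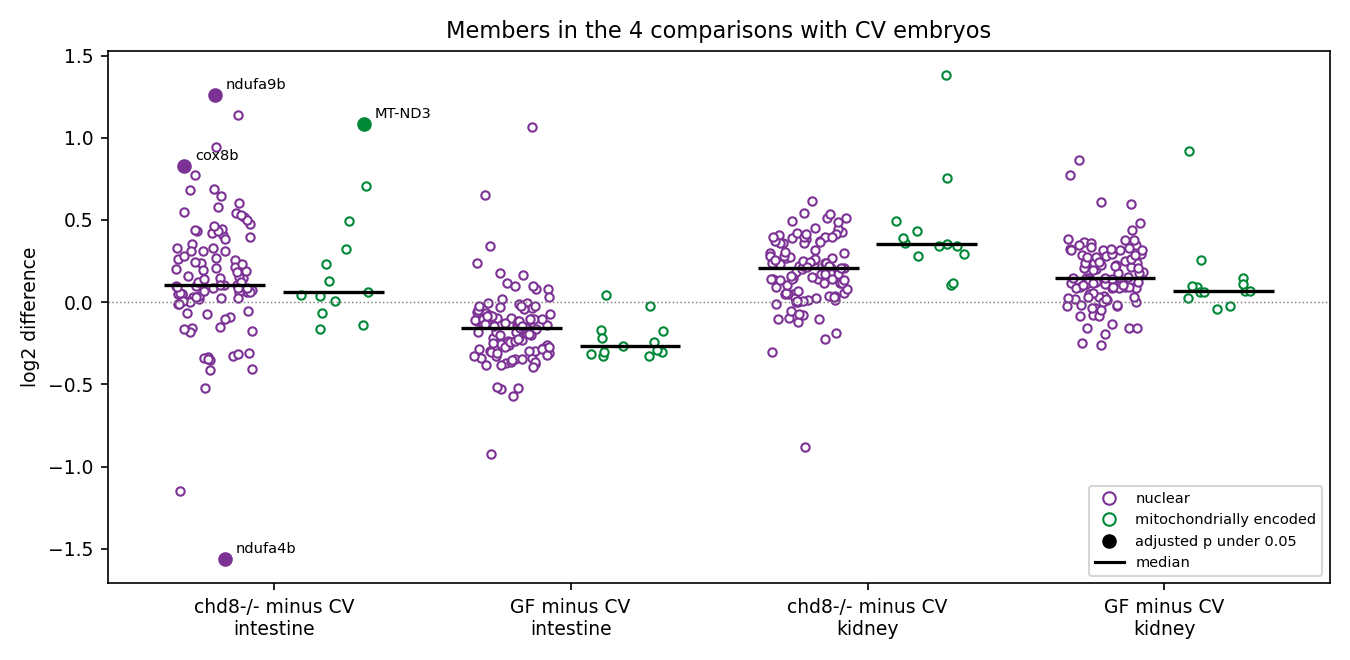
Log2 difference of every tested member in the 4 comparisons with CV embryos, nuclear members in purple and mitochondrially encoded members in green, with filled points for an edgeR adjusted p under 0.05 and bars for medians. Only ndufa4b, ndufa9b, cox8b and MT-ND3 are filled, all in chd8-/- intestine; the GF and chd8-/- values of a tissue share the same CV libraries.

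Counts of the other mitochondrial lists stand beside the 3.98% of all genes that were higher and 5.19% lower in chd8-/- intestine, and nothing particular to a list is read from them. Of 75 genes of the mitochondrial ribosome 6 rose and 0 fell, led by mrpl20 at 30.5 CPM in chd8-/- and 9.13 CPM in CV (1.74, edgeR adjusted p = 0.00167), with MRPL38 (0.89), MRPL2 (0.89) and MRPS23 (0.75) next. Of 16 regulators 3 rose, GABPB1, a subunit of the nuclear respiratory factor GABP, at 12.9 CPM in chd8-/- and 1.75 CPM in CV (2.90, edgeR adjusted p = 0.000451), pparaa (0.65) and creb1a (0.62). Of 35 genes for copying and transcribing mitochondrial DNA, SSBP1 (0.96), FASTKD1 (0.62) and grsf1 (0.59) rose and PRIMPOL fell (−1.57).

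Of 20 fatty acid oxidation genes 4 fell and 0 rose. CPT2, which brings fatty acids into the matrix, stood at 28.9 CPM in chd8-/- and 65.7 CPM in CV intestine (−1.18, edgeR adjusted p = 0.00106), and DECR1 (−1.50), hadhaa (−0.81) and ACAA2 (−0.72) fell too. Of 43 assembly factors outside the members, cox14 (1.55) and cmc1 (0.71), both of complex IV, rose and coa3b fell (−2.76). In the citric acid cycle PDHX rose (0.92) and PC, which makes oxaloacetate from pyruvate, fell (−0.96), of 22 tested. UCP2 rose (0.79) of 14 genes for oxygen defence and uncoupling, chchd3b fell (−0.80) of 35 for import and membranes, and 0 passed of 24 chaperones and stress genes, 15 of glycolysis and 5 carriers.

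Markers of other cells differed between these groups as well. Enterocyte markers were called for 0 of 18 (median 0.15), but 6 of 13 erythroid markers fell, 4 of 8 ionocyte markers rose, and so did 2 of 20 muscle and 1 of 14 exocrine pancreas markers. Summed ionocyte markers, from mitochondria-rich cells of the skin and gills, reached 271 to 306 CPM in chd8-/- intestine and 196 to 201 CPM in CV intestine. Their part in the members' values was not tested.

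The comparison of GF with CV intestine asked what rearing without microbes changed. No member was called, nor was any other gene (0% of genes tested). DESeq2 called 35 genes and 0 members, and limma voom 0 genes. At an unadjusted p under 0.05 there was 1 member, cox4i1l, beside 5.96% of all genes (3.07% higher, 2.89% lower). It held 15.5, 9.04 and 12.98 CPM in GF and 24.6, 27.6 and 19.1 CPM in CV intestine, without overlap (−0.92, SE 0.23, edgeR adjusted p = 0.803).

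Small negative differences prevailed in GF intestine, for 90 of 103 nuclear members (median −0.16) and 12 of 13 mitochondrially encoded members (median −0.27), beside 48.4% negative and 51.6% positive over all genes and a median of 0.01. These medians moved with single libraries: without CV replicate 1 the nuclear median was 0.06, and without CV replicate 2 the mitochondrial median was −0.12. GF replicate 3, whose mitochondrial sum was the lowest of the intestine libraries, also held brain and retina markers at 726 CPM, against 28.3 to 56.8 CPM in the other intestine libraries. Without it the medians were −0.19 and −0.17, and the part of those markers was not tested. The groups were fully apart, GF lower, for 3 nuclear and 2 mitochondrially encoded members, beside 6.02% of all genes (5.1% had GF higher). MT-CO1 stood at 10381, 13190 and 11046 CPM in GF and 12074, 17681 and 12950 CPM in CV, which overlap (−0.30, SE 0.26, edgeR adjusted p = 0.865).

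The nuclear members with a mean of at least 5 CPM at either end, cox4i1l apart, had overlapping groups too. NDUFB11, an accessory subunit of complex I, stood at 21.0, 18.8 and 16.4 CPM in GF and 41.6, 13.4 and 28.5 CPM in CV intestine (−0.57, SE 0.35). SDHAF4, which helps assemble complex II, was at −0.53. At the upper end were cox8a at 0.24, SDHB, the iron-sulfur subunit of complex II, at 0.18 and NDUFA6 at 0.17. MT-ND3, called in chd8-/- intestine, held 113, 154 and 97.0 CPM in GF and 117, 143 and 92.4 CPM in CV (0.05, SE 0.22, edgeR adjusted p = 0.980), and ndufa4b held 155, 88.3 and 120 CPM in GF and 186, 148 and 139 CPM in CV (−0.38, SE 0.22, edgeR adjusted p = 0.810).

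The comparison of chd8-/- with CV kidney called 0 members and 0% of genes in edgeR, DESeq2 called 245 genes and 0 members, and limma voom called 0 genes. Without chd8-/- replicate 1, which stood apart with the highest nuclear sum of the kidney libraries and fatty acid oxidation genes at 1503 CPM against 691 and 709 CPM in the other 2, edgeR called 139 genes and 0 members. The mitochondrially encoded members were higher in chd8-/- in all 13 cases without passing, with a median of 0.35, and 92 of 104 nuclear members were higher with a median of 0.21, beside 48.6% of all genes and a median of −0.01. In fits without 1 library the medians ran from 0.31 to 0.44 and from 0.12 to 0.27. The groups were fully apart, chd8-/- higher, for 10 of 13 mitochondrially encoded and 20 of 104 nuclear members, beside 8.1% of all genes (7.67% had chd8-/- lower). At an unadjusted p under 0.05, 5 mitochondrially encoded and 7 nuclear members were higher, beside 4.91% of all genes (4.09% were lower). The members were measured in the same libraries, so such tallies, here and in the other comparisons, do not count independent cases.

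The largest of these differences were again those of mt-atp8, whose level is uncertain as said above, and MT-ND3. MT-ND3 held 164, 227 and 259 CPM in chd8-/- and 136, 129 and 120 CPM in CV kidney, without overlap (0.75, SE 0.22, edgeR adjusted p = 0.443). Levels of mt-atp8 were 26.2, 10.5 and 17.5 CPM in chd8-/- and 6.19, 4.64 and 9.93 CPM in CV, also apart (1.38, SE 0.39, edgeR adjusted p = 0.443). MT-ND3 was thus higher in every chd8-/- library than in every CV library of the same tissue, in both tissues, and passed the test in the intestine alone.

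Among nuclear members with a mean of at least 5 CPM, NDUFB1 and ndufc1, accessory subunits of complex I, stood at 0.62 and 0.55 and ATP5MG, a subunit by which ATP synthases pair up, at 0.51. ATP5MG held 110, 92.0 and 88.0 CPM in chd8-/- and 73.0, 56.1 and 74.2 CPM in CV kidney, without overlap (SE 0.20, edgeR adjusted p = 0.507). COX6A1 (−0.31), NDUFAF1 (−0.22) and SDHA (−0.12) were at the lower end. SDHA turned to 0.05 without CV replicate 1. Enterocyte markers were positive for 16 of 17 as well, with a median of 0.64 and 0 called. They summed to 16981, 9150 and 11937 CPM in chd8-/- and 5009 to 11350 CPM in CV kidney, which overlap. Within chd8-/- kidney these sums ran in the order of the nuclear sums but not of the mitochondrial sums. Kidney tubule and erythroid markers ran in the order of the nuclear sums too. Ionocyte markers summed to 276, 603 and 627 CPM in chd8-/- and 283 to 344 CPM in CV kidney. The chd8-/- kidney replicates ran in the same order as for MT-ND3 but not as for mt-atp8. Macrophage and neutrophil markers and glycolysis genes shared the order of MT-ND3, so such an order is not particular to 1 list. In chd8-/- intestine the ionocyte sums of 306, 271 and 281 CPM did not follow the order of MT-ND3, which was highest in replicate 2. The part of any of these lists was not tested.

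The comparison of GF with CV kidney also called 0 members and 0% of genes in edgeR, DESeq2 called 176 genes and 0 members, and limma voom called 0 genes. Differences were positive for 86 of 104 nuclear members (median 0.14), among them all 18 of ATP synthase, and for 11 of 13 mitochondrially encoded members (median 0.07), beside 51.4% of all genes. The groups were apart, GF higher, for 14 nuclear and 1 mitochondrially encoded member, beside 7.4% of all genes (7.87% had GF lower). At an unadjusted p under 0.05, 5 nuclear members, all of complex I, and 1 mitochondrially encoded member were higher, beside 4.3% of all genes (8.79% in either direction, 4.48% lower).

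Among nuclear members with a mean of at least 5 CPM, NDUFB1 was highest, with 19.5, 14.8 and 20.1 CPM in GF and 7.61, 10.7 and 11.6 CPM in CV kidney, without overlap (0.86, SE 0.23, edgeR adjusted p = 0.542). The mitochondrially encoded member was mt-atp8, whose level is uncertain as said above, at 16.1, 11.5 and 12.5 CPM in GF and 6.35, 4.71 and 10.1 CPM in CV (0.92, edgeR adjusted p = 0.543). The accessory subunits ndufc1 and ndufa11 stood at 0.60 and 0.48, and SDHA, cox6b1 and NDUFAF1 at −0.26, −0.25 and −0.16. Without CV replicate 1 and the library labelled GF kidney replicate 2, which both stood apart in other genes, 944 genes and 6 nuclear members were called. Over all genes that was 4.43% (2.48% higher, 1.95% lower). All 6 members were higher, and NDUFB1 was among them (0.83). Leaving out either library alone gave 0 calls over all genes, so these calls rest on leaving out both. Of 20 fatty acid oxidation genes 18 were positive in GF kidney (median 0.45), 8 of them at an unadjusted p under 0.05 and 0 after adjustment.

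Whether a difference from CV was itself different between kidney and intestine was tested over the 18 libraries. For chd8-/- no member passed, where 0.127% of all genes did, and the median of kidney effect minus intestine effect was 0.06 over nuclear and 0.28 over mitochondrially encoded members (−0.14 to 0.17 and 0.11 to 0.39 without single libraries). For MT-ND3 it was −0.31 (edgeR adjusted p = 0.794), and for mt-atp8 it was 0.76 (edgeR adjusted p = 0.800). For GF no member passed either, where 0.00438% of all genes did. The difference was positive for 92 of 104 nuclear members (median 0.33) and 13 of 13 mitochondrially encoded members (median 0.35). Over all genes 48.1% were positive for GF with a median of −0.02, and the median for chd8-/- was 0.03. DESeq2 called 274 and 24 genes in these tests and 0 members in each. At an unadjusted p under 0.05 edgeR had 4 nuclear members for chd8-/- and 6 for GF, beside 9.98% and 6.41% of all genes. The nuclear median for GF was 0.08 without CV intestine replicate 1, so the effects of rearing are not shown to differ between the tissues for any member.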

How the data were processed

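Raw read counts per Ensembl gene, as deposited by the authors, came in 4 tables, each with CV and GF or CV and chd8-/- libraries of 1 tissue. Tools named in the submitters' processing notes are Trim Galore 0.6.7, FastQC 0.11.9, STAR 2.7.9a and Subread 2.0.1 with featureCounts, on build GRCz11. The sources used here do not give library selection, strand setting or treatment of multiply mapping reads.

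Members were found by symbol in a table of gene names that covered 29201 of 32520 identifiers. Of the members, 86 have symbols in capitals, which are printed so, and 9 share a symbol. NDUFS1, ndufa4l2b, UQCRB and NDUFB4 (at most 10 counts in any library) failed the filter, leaving 117. Members and lists were chosen with earlier results of these data known, and the rule for named genes took all mitochondrially encoded members, nuclear members called in a comparison with CV, those with the 3 largest differences each way there (6 for CV kidney against intestine) at a mean of at least 5 CPM, genes for the same subunit, and up to 4 called genes each way of the other lists. SDHA, NDUFV1, UQCRC1 and ATP5F1A in the tissue comparison were chosen outside it as core subunits after their values were seen. SDHB, NDUFS3, NDUFV2 and ATP5F1C were set beside them in the same way.

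The main test was that of edgeR 4.0.16 under R 4.3.3 (filterByExpr, TMM, robust quasi-likelihood F-test, Benjamini-Hochberg over all genes tested, called at an adjusted p under 0.05), on the 6 libraries of each comparison with CV and on all 18 for tissue comparisons and differences of effects. Standard errors are the absolute log2 fold change over the root of F. Alternatives were DESeq2 1.42.0, limma 3.58.1 (voom), library size as the only scaling, no filter and a filter of 10 counts, a replicate block, and leaving out libraries. The comparisons with CV were also made in a single fit of all 9 libraries of the tissue. The fits were also run on counts simulated with the means, spread and library sizes of the real libraries. That simulation held no libraries that stand apart, and no result is drawn from it here. CPM were computed with TMM factors. Levels per kilobase used RefSeq lengths of assembly GRCz12tu for the mitochondrially encoded genes alone, and no coordinates or sequences are printed because that is not the authors' build. Replicates within a group differed by more than sampling noise (lowest chi-square over its degrees of freedom 16.5). The CV columns of the 2 kidney tables were identical. Those of the intestine tables were the same 3 libraries renumbered, with germ-free table replicates 1, 2 and 3 matching chd8-/- table replicates 3, 1 and 2. The 18-library fit used the germ-free table for them.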

Additional observations from a re-analysis of the deposited data

How the results depend on the processing

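Of the counts of members called and the ratio differences, 143 values under other settings stayed within 1.5 times or the replicate spread and 4 moved, and without single libraries 164 stayed and 10 moved. A value within that spread was counted as staying even where its sign turned, as it did for ratio differences listed below. In chd8-/- intestine DESeq2 called 8 nuclear members (and 2748 genes, against 1903) and scaling by library size alone 5 (4 higher, 1 lower, where calls over all genes split into 577 higher and 1555 lower in place of 826 and 1077), against 3. Leaving out single libraries gave 1 to 19 nuclear and 1 to 3 mitochondrially encoded calls there, beside 3.44% to 14.3% of all genes. In the tissue comparisons it gave 56 to 79 nuclear calls in chd8-/-, 36 to 49 in GF and 68 to 82 in CV. Mitochondrially encoded calls were 1 to 2, 1 to 3 and 4 to 5. Beside these, 25.6% to 31%, 27.9% to 33% and 32.8% to 37% of all genes were called. GF kidney gained 6 calls without CV replicate 1 and GF replicate 2, where 4.43% of all genes were called. The ratio difference of kidney and intestine in GF was 0.34 with mean log2 CPM in place of sums, against 0.64; that of chd8-/- was 0.49, against 0.79, and that of CV 0.25, against 0.46. Among named genes, directions turned for cox6b1 in GF kidney (0.0191 with the replicate block, 0.40 without the 2 libraries above, and −0.56 to 0.63 without single libraries) and, in ranges without single libraries, for ATP5PF in chd8-/- intestine (−0.71 to 0.0810), NDUFA6 (−0.0110 to 0.52), SDHB (−0.0725 to 0.43), MT-ND3 (−0.16 to 0.21) and mt-atp8 (−0.50 to 0.48) in GF intestine, SDHA in chd8-/- kidney (−0.31 to 0.0518) and NDUFA6 between CV tissues (−0.0211 to 0.53). None of these had passed, and the cause was not tested. Among medians and ratio differences, signs turned without single libraries for the ratio in GF kidney and in chd8-/- and GF intestine, the medians in chd8-/- intestine, the nuclear median in GF intestine, the mitochondrial median between GF tissues (−0.15 to 0.07) and the nuclear median of the difference in chd8-/- effect. With mean log2 CPM the ratio in chd8-/- intestine was 0.01. Scaling by library size alone moved the median of all genes by −0.12 in GF and CV tissue comparisons.

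Same-numbered libraries did not deviate together (correlations −0.19 to 0.01), so the numbers were not taken as pairs. CV intestine was numbered here as in the table of each comparison. Those numberings differ, so the check cannot settle pairing in the intestine. With the replicate block 3 nuclear and 1 mitochondrially encoded members were called in chd8-/- intestine, beside 6.47% of all genes. There cox8b (edgeR adjusted p = 0.0531) and ndufa9b (0.0509) missed the threshold and NDUFAF3 (0.0184) and NDUFA6 (0.0437) passed. Between tissues, with CV intestine numbered as in the germ-free table, the block gave 77, 57 and 79 nuclear calls in chd8-/-, GF and CV. Over all genes it called 32.4%, 34.3% and 38.7%. Low members, such as cox4i1l and ndufa4b in kidney, rest on few counts in each library, and with 3 libraries a group the count of calls follows single libraries.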
